A study of Mus musculus with 75 samples.

Results

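The vascular endothelial growth factor (VEGF) family was followed in whole mouse kidneys through 8 genes, 3 ligands (Vegfa, Vegfb and Vegfc), 3 receptor tyrosine kinases (Kdr, Flt1 and Flt4) and 2 coreceptors (Nrp1 and Nrp2). The genes were chosen by symbol, and all 8 were found among the 32245 genes of the count table. The table held 75 RNA-seq libraries from adult mice, taken 3 days after unilateral ureter obstruction (UUO), which ties off the ureter of 1 kidney; the contralateral kidney (CL) of operated mice served as the reference. In the ABTAA arm, mice received either a human IgG Fc control (IgG, 8 CL and 8 UUO libraries) or ABTAA, an antibody that binds ANGPT2 and activates the endothelial receptor TIE2 (ABT, 7 and 7); these were C57BL6/J mice or WT animals of the other breedings. In the Veptp arm, mice with floxed Veptp (gene symbol Ptprb) carried the tamoxifen-inducible Cdh5-CreERT2, which is driven by an endothelial promoter (VeKO, 6 and 8), and the controls were Veptp wt/lox littermates with the same Cre that were not induced (VeWT, 7 and 8). In the Pdgfb arm, floxed Pdgfb was deleted in the whole body by tamoxifen-inducible Actb-CreERT2 (PbKO, 4 and 4), and Cre-negative wt/lox or lox/lox littermates were the controls (PbWT, 4 and 4). Both knockout lines were on a mixed background, both sexes were used, and the study's methods state that the PbWT CL group also holds kidneys of sham-operated mice. Per the methods, 2 PbWT CL samples were lost and kidneys of 2 sham-operated mice were used in this group. The labels do not mark the sham kidneys. The methods also give fewer VeWT mice than there are UUO libraries labelled VeWT, and the labels do not show which library this concerns.

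VEGF-A, made in the kidney mainly by podocytes and tubular epithelium, signals to endothelial cells chiefly through VEGFR2 (Kdr), whereas VEGFR1 (Flt1) binds VEGF-A and VEGF-B tightly and, in its soluble form, acts as a decoy. VEGF-C acts through VEGFR3 (Flt4) and is best known for the growth of lymphatic vessels. The neuropilins (Nrp1 and Nrp2) bind VEGFs and class 3 semaphorins, help VEGF receptors to signal, and are also made by mesenchymal and immune cells. The measurements here are RNA levels of whole tissue, in which fewer cells of a type and less RNA per cell cannot be told apart.

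Total UMI counts ranged from 172827 to 2341800 per library (median 757897), so the members rested on few molecules. The median count over the 75 libraries was 53 for Vegfa, 15 for Vegfb, 26 for Kdr, 30 for Flt1, 90 for Nrp1 and 15 for Nrp2, but 3 for both Vegfc and Flt4. The names of 30 libraries join a letter and a number by the _ sign (joined names) and those of 45 do not (plain names). Each group that received IgG or ABTAA and each Veptp genotype held both forms, and all Pdgfb libraries had plain names. Levels differed between the forms, as for Vegfb in VeWT CL kidneys, with a mean of 12.9 CPM (counts scaled to a common library total) in 4 libraries with joined and 32.1 CPM in 3 with plain names, so values within each form or with the name form as a covariate are given for members whose call they change. The tubular injury gene Havcr1 separated the kidneys: in the ABTAA arm and in VeWT mice, the highest CL library had 30.4 CPM and the lowest UUO library 439 CPM. In the Pdgfb arm the highest CL library had 69.6 CPM (PbWT) and the lowest UUO library 361 CPM (PbKO). One VeKO CL library (replicate 2) stood apart from its group at 227 CPM; without it, no member's call in VeKO mice changed. The log2 fold change of Vegfa moved from -0.70 to -0.67, that of Vegfb from -0.28 to -0.15 and that of Flt4 from -0.11 to -0.25, and the difference in Vegfc from 0.893 to 0.325 CPM. Ptprb averaged 32.6 CPM in VeKO and 50.8 CPM in VeWT CL kidneys (log2 fold change -0.63 ± 0.36 (SE), adjusted p = 1.00), and 31.4 and 48.2 CPM in UUO kidneys (-0.69 ± 0.33, adjusted p = 1.00). Pdgfb averaged 19.0 CPM in PbKO and 10.4 CPM in PbWT CL kidneys (0.78 ± 0.33, adjusted p = 1.00), against 37.2 and 53.2 CPM in UUO kidneys (-0.47 ± 0.21, adjusted p = 0.124). The RNA of the deleted gene was thus not lower in the CL libraries labelled PbKO. The paper itself reports lower Pdgfb expression in both the obstructed and the contralateral kidneys of its Pdgfb knockout mice. PbKO below names the label only. Which part of either transcript was deleted, and whether it was counted, is not known from the sources used here.

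Differences were tested with edgeR's quasi-likelihood test over all genes of an arm, called at a Benjamini-Hochberg adjusted p below 0.05, and are given as log2 fold changes ± SE. Levels are CPM after TMM scaling and are compared between groups for 1 gene, not between genes. The share of all tested genes called in the same comparison is given as background beside each first count of members. Samples are separate kidneys. The library names share numbers across CL and UUO for only some libraries, and the labels do not say which libraries came from the same mouse, so the p-values measure the spread between libraries.

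**Figure D1:**
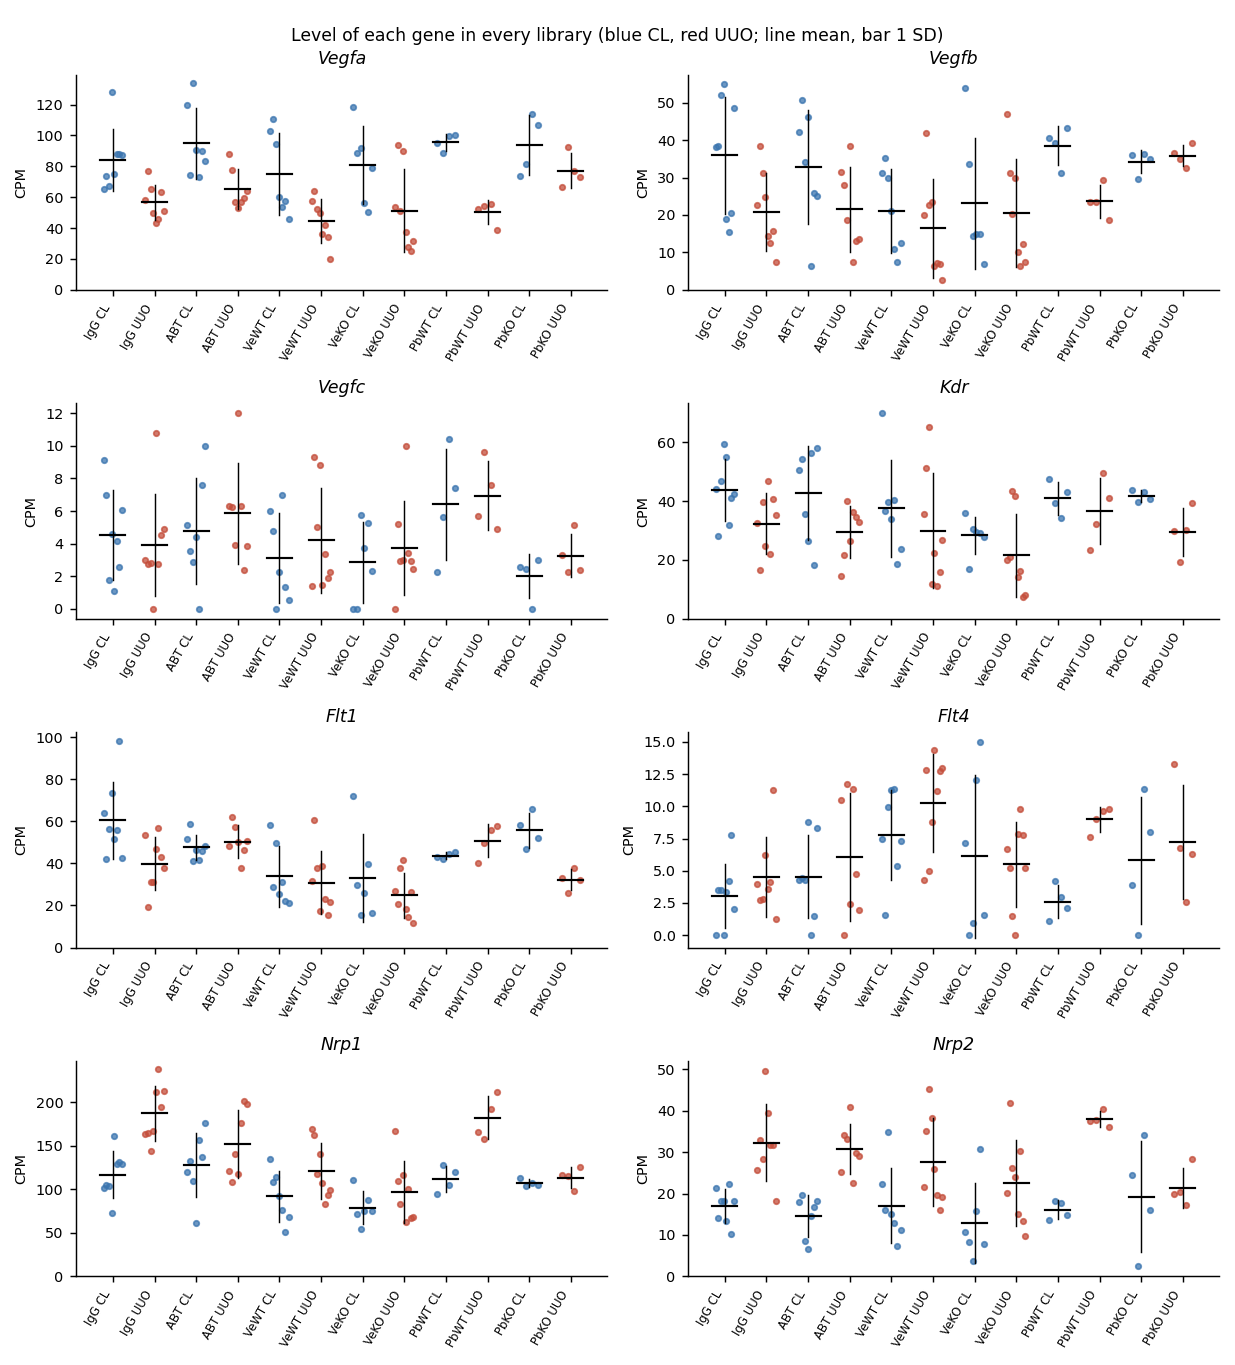
CPM (vertical axis, linear) of each of the 8 genes in all 75 libraries (points), by group (horizontal axis; blue CL, red UUO); horizontal lines are group means and vertical bars 1 SD. Vegfa in PbWT UUO kidneys, from 39.0 to 55.7 CPM, lay below every PbWT CL kidney, and Nrp2 in PbWT UUO kidneys lay above every PbWT CL kidney.

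The question of the main comparison was how obstruction moved each member. Over the mean of the 6 genotype or treatment groups, Vegfa, Vegfb and Kdr fell, and Nrp1, Nrp2 and Flt4 rose, so that 3 of 7 tested members were called higher (background 25.8% of 12210 genes) and 3 lower (24.8%). Vegfa fell by 0.63 ± 0.10 on the log2 scale (0.645-fold, adjusted p = 7.87e-08), Vegfb by 0.49 ± 0.18 (adjusted p = 0.0223) and Kdr by 0.42 ± 0.14 (adjusted p = 0.00696). Nrp2 rose by 0.77 ± 0.13 (1.70-fold, adjusted p = 1.23e-06), Nrp1 by 0.39 ± 0.09 (adjusted p = 6.80e-05) and Flt4 by 0.53 ± 0.21 (adjusted p = 0.0313). Flt4 had a median of 3 counts and passed the filter only in the Veptp arm and in this fit. Its highest group mean was that of VeWT UUO kidneys (10.3 CPM). In the Veptp arm edgeR did not call it, with 0.49 ± 0.42 in VeWT (adjusted p = 0.496) and -0.11 ± 0.49 in VeKO mice (adjusted p = 0.940). Flt1 had -0.25 ± 0.11 (adjusted p = 0.0543), and was called with the name form as a covariate (adjusted p = 0.0286). Scaling by library totals alone took the calls of Vegfb and Kdr away (-0.32, adjusted p = 0.0787, and -0.25, adjusted p = 0.0882), and moved the median of all genes from 0.02 to 0.20.

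Within the separate groups the calls were fewer. In IgG mice 2 of 6 tested members rose (background 16.0%) and 2 fell (18.4%), and in ABT mice 1 rose (12.7%) and 1 fell (12.5%). None of 7 was called in VeWT mice (10.0% of all genes higher, 8.38% lower) or in VeKO mice (4.47% and 3.47%) by edgeR, DESeq2 or the exact test, although 2 members in VeWT and 1 in VeKO mice had an unadjusted p below 0.05. With the name form as a covariate, 4 members were called in VeWT mice (Vegfa, Vegfb, Nrp1 and Nrp2) and 2 in VeKO mice (Vegfa and Kdr), while the calls among all 11916 genes went from 2194 to 4044 and from 947 to 2560. In PbWT mice, whose CL group includes the unmarked sham kidneys, 2 of 6 rose (17.9%) and 2 fell (19.4%), and in PbKO mice none rose (3.94%) and 1 fell (2.40%). The 3 control responses were compared with one another in a fit of all libraries, and no member differed between VeWT and IgG, PbWT and IgG or PbWT and VeWT mice at the adjusted threshold, at an unadjusted p below 0.05, or by DESeq2 (0 of 7 each, background 0%).

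**Figure D2:**
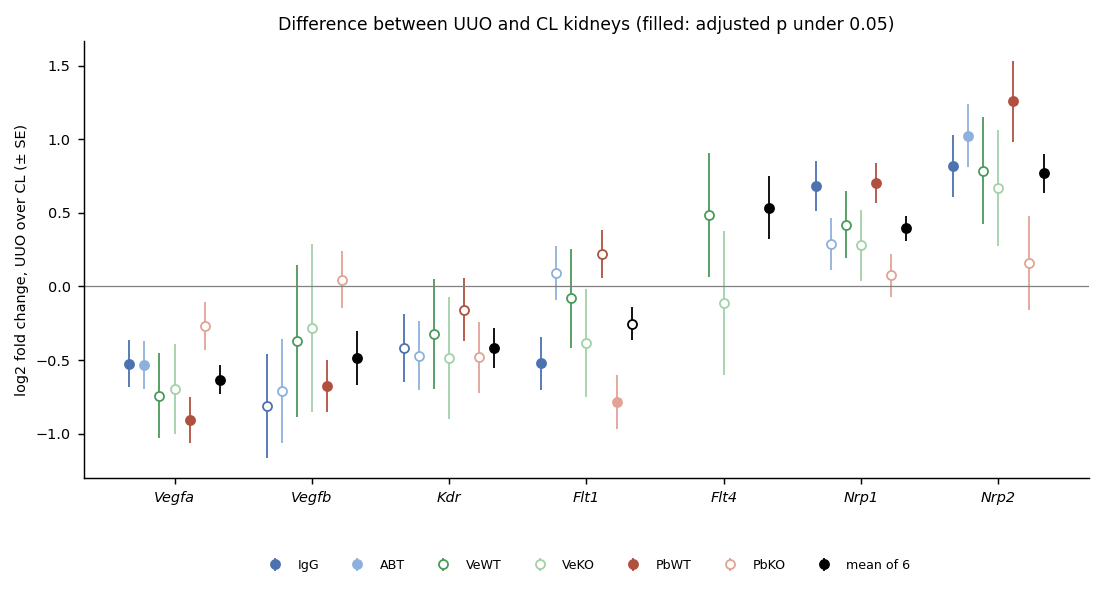
Log2 fold change of UUO over CL kidneys (vertical axis, ± SE) for the 7 tested members (horizontal axis) in each of the 6 groups and for their mean (colours); filled points have an adjusted p below 0.05. Every point of Vegfa lies below 0 and every point of Nrp1 and Nrp2 above it, with the PbKO points nearest to 0.

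Vegfa, the main endothelial growth factor of the kidney, was lower in UUO than in CL kidneys in the IgG, ABT and PbWT groups. In IgG mice its CPM ran from 65.5 over a median of 81.1 to 128 in CL and from 43.1 over 54.8 to 76.9 in UUO kidneys. The groups overlapped, but all 8 UUO libraries lay below the CL median (-0.53 ± 0.16, adjusted p = 0.00996; with library totals alone -0.32, adjusted p = 0.103). In ABT mice the CL libraries ran from 73.1 over 89.9 to 134 CPM and the UUO libraries from 52.8 over 59.4 to 88.0 CPM, and all 7 of the latter were below the CL median (-0.53 ± 0.16, adjusted p = 0.0133; with all 12 groups in 1 fit -0.56, adjusted p = 0.0570). In PbWT mice the 4 CL libraries had 94.8, 88.3, 99.4 and 100.2 CPM and the 4 UUO libraries 52.1, 54.6, 55.7 and 39.0 CPM, with no overlap (-0.91 ± 0.15, 0.533-fold, adjusted p = 4.13e-05). In PbKO mice the CL libraries had 73.5, 81.6, 114 and 107 CPM and the UUO libraries 66.3, 92.4, 77.2 and 73.1 CPM, which overlapped (-0.27 ± 0.16, adjusted p = 0.384).

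In the Veptp arm the level of Vegfa depended on the form of library name, and so did the calls. In VeWT CL kidneys its mean was 54.2 CPM with joined (n = 4) and 103 CPM with plain names (n = 3). Pooled, VeWT mice had 75.0 ± 26.6 CPM (SD, n = 7) in CL and 44.5 ± 14.2 CPM (n = 8) in UUO kidneys, with an adjusted p = 0.0708 by edgeR (-0.74 ± 0.29). Within the libraries with joined names the difference was -0.69 (adjusted p = 0.0250), within those with plain names it was -0.80 (adjusted p = 0.0246), and with the form as a covariate it was -0.77 (adjusted p = 0.000257). VeKO mice had 80.8 ± 25.0 CPM (n = 6) in CL and 51.3 ± 27.0 CPM (n = 8) in UUO kidneys (-0.70 ± 0.31, adjusted p = 0.178). There the difference was -1.195 (adjusted p = 0.000427) with joined and -0.52 (adjusted p = 0.744) with plain names, of which 2 were CL libraries, and -0.97 (adjusted p = 8.70e-05) with the form as a covariate. In IgG mice the values by form were -0.71 (adjusted p = 0.00272) and -0.26 (adjusted p = 0.488), and in ABT mice -0.43 (adjusted p = 0.109) and -0.58 (adjusted p = 0.0982). The 12 group means ran from VeWT UUO (44.5 CPM) through PbWT UUO, VeKO UUO, IgG UUO, ABT UUO, VeWT CL, PbKO UUO, VeKO CL, IgG CL, PbKO CL and ABT CL to PbWT CL (95.7 CPM), and no neighbours in this order differed by more than the larger of their SDs. The only UUO group above any CL group was that of PbKO mice.

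Podocytes are a major source of Vegfa, so its level was set against 8 podocyte markers in the same library, as log2(CPM + 1) of Vegfa minus the mean of the markers. In VeWT mice this value was 2.08 ± 0.25 (SD, n = 7) in CL and 1.05 ± 0.34 (n = 8) in UUO kidneys, and every UUO library lay below every CL library (exact two-sided permutation test, p = 0.000155, adjusted over 18 tests p = 0.00280). In PbWT mice it was 1.92 ± 0.41 against 0.90 ± 0.32 (n = 4 each), without overlap, at the smallest p that 4 against 4 allow (exact p = 0.0286, adjusted p = 0.134). In PbKO mice it was 1.77 ± 0.35 in CL and 1.87 ± 0.31 in UUO kidneys (n = 4 each, exact p = 0.629, adjusted p = 0.666). The differences in IgG (-0.55), ABT (-0.49) and VeKO mice (-0.61) had adjusted p values of 0.181, 0.222 and 0.287 by the exact permutation test. Summed podocyte markers ranged from 117 to 419 CPM over all CL and from 115 to 390 CPM over all UUO libraries, and none of the 8 was at 0 throughout a group. The relative value moves with these markers as well as with Vegfa. Their median log2 fold change was 0.06 in IgG, 0.12 in ABT, 0.35 in VeWT, -0.29 in VeKO, 0.19 in PbWT and -0.24 in PbKO mice. Mean sums were 221 CPM in VeWT CL and 256 CPM in VeWT UUO kidneys. In PbKO mice the sums ran from 306 to 398 CPM in CL and from 207 to 279 CPM in UUO kidneys, without overlap. Of the 8 markers, Synpo rose (0.35 ± 0.12, adjusted p = 0.00886) and 3 fell over the mean of the groups. Markers of the tubular sources moved further: all 10 proximal tubule markers and 6 of 7 markers of the thick ascending limb and distal tubule fell over the mean of the groups, and summed proximal tubule markers ranged from 8605 to 8992 CPM in PbWT CL and from 2406 to 3286 CPM in PbWT UUO libraries. Their part in the lower Vegfa was not tested.

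Vegfb, a ligand of VEGFR1 linked to fatty acid uptake, fell in PbWT mice and in the mean of the groups. The PbWT CL libraries had 40.6, 39.2, 31.2 and 43.2 CPM and the UUO libraries 23.5, 23.4, 29.2 and 18.5 CPM, with no overlap (-0.68 ± 0.18, adjusted p = 0.00366). This call was lost with library totals alone (-0.31, adjusted p = 0.168) and with all 12 groups in 1 fit (-0.69, adjusted p = 0.359). PbKO mice had 36.1, 29.7, 36.4 and 34.9 CPM in CL and 36.5, 34.9, 32.6 and 39.3 CPM in UUO kidneys, values that overlapped (0.05 ± 0.19, adjusted p = 0.932). In IgG mice the CL libraries ran from 15.3 over 38.3 to 54.9 CPM and the UUO libraries from 7.32 over 19.3 to 38.4 CPM (-0.81 ± 0.35, adjusted p = 0.0724). In ABT mice the difference was -0.71 ± 0.35 (adjusted p = 0.147), in VeWT mice -0.37 ± 0.52 (adjusted p = 0.701) and in VeKO mice -0.28 ± 0.57 (adjusted p = 0.862). With the name form as a covariate Vegfb was called lower in IgG (-0.84, adjusted p = 0.00472), ABT (-0.67, adjusted p = 0.0274) and VeWT mice (-0.69, adjusted p = 0.0340), and in the VeWT libraries with joined names alone it was also called (-1.13, adjusted p = 0.0376). With a replicate block for the numbers that 3 ABT CL and 3 ABT UUO libraries share, it was called in IgG mice (-0.82, adjusted p = 0.0219), and with block and form together also in ABT mice (-0.63, adjusted p = 0.0301).

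Vegfc, the ligand of VEGFR3, was close to the limit of detection and was left out of every fit by the filter on low counts. It had 0 counts in 7 of 75 libraries, where 0 counts allow a level of up to 6.26 to 20.1 CPM, and at most 19 counts. Group means ran from 2.01 ± 1.36 CPM in PbKO CL (n = 4) to 6.95 ± 2.10 CPM in PbWT UUO kidneys (n = 4), and no neighbouring group means differed by more than the larger SD. Exact two-sided permutation tests of UUO against CL, chosen after seeing the data, gave p from 0.343 to 0.829 in the 6 groups, with every group overlapping, so that no difference was detectable at this depth.

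The stretches before the transcription starts of Vegfa and Vegfb, the ligands that fell together, and of Flt1 and Nrp2, a receptor and a coreceptor whose values parted in the Pdgfb arm, are printed to show the sequence next to their starts. They come from RefSeq on GRCm38.p6, the build of the mm10 alignment, written 5′ to 3′ on the strand of the gene, and cover up to 250 bases upstream of the start, with bases inside annotated exons left out. Capitals mark the core of the hypoxia-response element (ACGTG or GCGTG) and the GC box (GGGCGG) on either strand, where overlapping matches merge.
Vegfa, chr17:46032378-46032627, minus strand: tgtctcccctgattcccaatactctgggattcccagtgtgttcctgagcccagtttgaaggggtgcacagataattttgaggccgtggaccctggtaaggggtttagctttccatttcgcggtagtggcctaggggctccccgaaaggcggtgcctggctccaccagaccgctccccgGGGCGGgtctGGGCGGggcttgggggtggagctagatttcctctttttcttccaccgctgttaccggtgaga
Vegfb, chr19:6987652-6987901, minus strand: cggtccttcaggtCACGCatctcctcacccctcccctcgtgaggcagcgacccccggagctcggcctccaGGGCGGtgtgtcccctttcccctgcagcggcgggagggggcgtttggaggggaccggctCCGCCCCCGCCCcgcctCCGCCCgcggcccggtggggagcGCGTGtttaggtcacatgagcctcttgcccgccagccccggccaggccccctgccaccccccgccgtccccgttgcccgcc
Flt1, chr5:147726012-147726261, minus strand: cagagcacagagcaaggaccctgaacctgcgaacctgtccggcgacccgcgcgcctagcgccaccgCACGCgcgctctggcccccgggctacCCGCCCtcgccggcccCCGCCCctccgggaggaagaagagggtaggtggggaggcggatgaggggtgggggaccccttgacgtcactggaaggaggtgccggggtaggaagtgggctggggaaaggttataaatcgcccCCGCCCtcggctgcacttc
Nrp2, chr1:62703067-62703284, plus strand: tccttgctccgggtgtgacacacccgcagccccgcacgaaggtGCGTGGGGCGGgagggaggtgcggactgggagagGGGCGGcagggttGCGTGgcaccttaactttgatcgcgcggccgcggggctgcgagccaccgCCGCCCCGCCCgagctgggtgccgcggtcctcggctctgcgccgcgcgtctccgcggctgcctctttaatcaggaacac
The Vegfa stretch held 2 GC boxes and no hypoxia-response core, that of Vegfb 4 GC boxes and 2 cores, that of Flt1 3 GC boxes and 1 core, and that of Nrp2 4 GC boxes and 2 cores. Sequence further from the starts was not searched, so these counts hold for the printed bases alone and do not show that a gene lacks the element. All cores found were of the GCGTG form. Among 32851 RefSeq stretches of 250 bases, 38.6% held either core and 32.7% a GC box. Their GC content was 59.2% for Vegfa, 76.4% for Vegfb, 70.4% for Flt1 and 72.5% for Nrp2.

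In the GENCODE vM21 annotation of mm10, Vegfa is at chr17:46016993-46032369 and Vegfb at chr19:6982473-6987651, both on the minus strand, and Vegfc is at chr8:54077606-54187096 on the plus strand. Kdr (chr5:75932827-75978458) and Flt1 (chr5:147561604-147726011) lie on the minus strand of the same chromosome, and Flt4 is at chr11:49609263-49652739 on the plus strand. Nrp1 (chr8:128358604-128503363) and Nrp2 (chr1:62703285-62818695) are on the plus strand. All 8 are protein-coding genes, and Nrp1 alone has exons that overlap another annotated gene, the microRNA gene Mir1903 on the same strand.

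Kdr, the main signalling receptor for VEGF-A, was lower in the mean of the groups, but in no single group did it pass the threshold. The IgG CL libraries ran from 28.0 over 43.3 to 59.5 CPM and the UUO libraries from 16.5 over 34.0 to 46.7 CPM (-0.42 ± 0.23, adjusted p = 0.161). In ABT mice all 7 UUO libraries lay below the CL median (-0.47 ± 0.23, adjusted p = 0.145). The difference was -0.16 ± 0.21 in PbWT (adjusted p = 0.610) and -0.48 ± 0.24 in PbKO mice (adjusted p = 0.277), where the 4 UUO libraries, at 29.8, 19.1, 30.0 and 39.3 CPM, lay below the 4 CL libraries, at 43.9, 39.6, 43.2 and 40.9 CPM. In VeWT mice it was -0.32 ± 0.37 (adjusted p = 0.634). In VeKO mice it was -0.49 ± 0.41 (adjusted p = 0.590) pooled, -1.41 (adjusted p = 0.00298) in the libraries with joined names and 0.39 (adjusted p = 0.928) in those with plain names. With the name form as a covariate it was -0.90 (adjusted p = 0.0283). By form the VeKO means were 29.3 CPM in CL against 11.4 CPM in UUO kidneys with joined names (n = 4 each), and 26.4 CPM (n = 2) against 31.6 CPM (n = 4) with plain names.

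Set against 15 endothelial markers of the same library, Kdr was lower in UUO than in CL kidneys by 0.63 in IgG mice, with 1.05 ± 0.23 in CL and 0.42 ± 0.55 in UUO kidneys (log2 scale, n = 8 each, exact p = 0.00684, adjusted p = 0.0615). In ABT mice it was 0.97 ± 0.49 against 0.31 ± 0.50 (n = 7 each, exact p = 0.0297, adjusted p = 0.134), and in the other 4 groups the differences ran from -0.51 to -0.09 with adjusted p values from 0.286 to 0.853. Over the mean of the groups 1 of 14 tested endothelial markers rose and 3 fell, with a median of 0.03 against 0.02 over all genes. By group the medians of 13 markers had opposite signs: they were 0.17 in IgG, 0.26 in ABT, 0.18 in VeWT and 0.26 in PbWT mice, but -0.48 in VeKO and -0.36 in PbKO mice. Called higher were 3 in IgG (background 16.0%), 1 in ABT (12.7%) and 3 in PbWT mice (17.9%). Called lower were 1 in PbWT (19.4%) and 2 in VeKO mice (3.47%), and none was called in VeWT or PbKO mice. Over all genes the 6 medians ran from -0.00983 to 0.0385. The part of these markers in the values of Kdr and Flt1 was not tested. Cdh5, the adhesion protein VE-cadherin, rose by 0.39 ± 0.12 (adjusted p = 0.00482), whereas Ehd3, a marker of glomerular endothelium, fell by 0.65 ± 0.13 (adjusted p = 9.48e-06) and Emcn, a capillary and venous sialomucin, by 0.47 ± 0.12 (adjusted p = 0.000387). Esam, a junctional adhesion molecule, fell by 0.50 ± 0.13 (adjusted p = 0.000525). Summed endothelial markers ranged from 290 to 972 CPM over CL and from 270 to 715 CPM over UUO libraries.

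Flt1, the decoy-like receptor VEGFR1, fell in IgG and PbKO mice and was called in no other group, although with library totals alone it was called higher in PbWT mice (0.58, adjusted p = 0.00622). The IgG CL libraries ran from 42.0 over 56.1 to 98.0 CPM and the UUO libraries from 19.2 over 40.4 to 56.7 CPM, which overlapped (-0.52 ± 0.18, adjusted p = 0.0210). This call was lost without IgG CL replicate 7 (-0.39, adjusted p = 0.0747), with library totals alone (-0.30, adjusted p = 0.227) and within joined and plain names (-0.39, adjusted p = 0.237, and -0.60, adjusted p = 0.0920), and had an adjusted p from 0.0568 to 0.0839 without the filter, with a mean count of at least 20, in the exact test, with the 2 groups alone and with all 12 groups. In ABT mice the CL libraries ran from 41.3 over 46.2 to 58.7 CPM and the UUO libraries from 37.7 over 50.4 to 62.2 CPM (0.09 ± 0.18, adjusted p = 0.774). The difference between the ABT and IgG responses was 0.61 ± 0.25, with an unadjusted p = 0.0218 and an adjusted p = 1.00. In VeWT mice it was -0.08 ± 0.34 (adjusted p = 0.910) and in VeKO mice -0.38 ± 0.37 (adjusted p = 0.643). As log2(CPM + 1) of Flt1 minus that of Kdr, the balance of the receptors differed between UUO and CL kidneys by -0.24 to 0.56 in the 6 groups, and none passed the exact permutation test (adjusted p from 0.181 to 0.597).

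Flt4, the receptor VEGFR3 of lymphatic and fenestrated endothelium, was tested in the Veptp arm and in the fit of all libraries, and fell below the filter in the other arms. In PbWT mice the 4 CL libraries had 1, 3, 2 and 2 counts and the 4 UUO libraries 12, 15, 24 and 10 counts, which was 2.60 ± 1.31 against 9.00 ± 0.975 CPM with no overlap (exact permutation test, p = 0.0286, the smallest that 4 against 4 allow; adjusted over 10 tests p = 0.286). In PbKO mice the counts were 3, 0, 5 and 8 in CL and 4, 6, 3 and 8 in UUO kidneys and overlapped (5.80 ± 4.94 against 7.22 ± 4.44 CPM, n = 4 each, exact p = 0.657). In VeWT mice it had 7.75 ± 3.503 CPM (n = 7) in CL and 10.3 ± 3.83 CPM (n = 8) in UUO kidneys (0.49 ± 0.42, adjusted p = 0.496 by edgeR), and in VeKO mice 6.12 ± 6.32 CPM (n = 6) and 5.49 ± 3.31 CPM (n = 8) (-0.11 ± 0.49, adjusted p = 0.940). In IgG mice the means were 3.03 CPM in CL and 4.50 CPM in UUO kidneys (exact p = 0.336) and in ABT mice 4.52 and 6.08 CPM (exact p = 0.477). In the fit of all 12 groups, where Flt4 passed the filter, it was called higher in PbWT UUO kidneys (1.79, adjusted p = 0.0259). Summed lymphatic markers ranged from 10.3 to 52.0 CPM over all libraries, and 1 or 2 of the 6 were at 0 throughout each group. Of these 6 only 2 could be tested over the mean of the groups: Pdpn, also a podocyte and mesenchymal protein, rose by 1.203 ± 0.16 (adjusted p = 1.23e-09) and Prox1, which distal nephron cells also make, fell by 1.64 ± 0.21 (adjusted p = 9.64e-11).

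Nrp2, a coreceptor of VEGF-C and of class 3 semaphorins, rose in 3 groups. In IgG mice the CL libraries ran from 10.3 over 18.2 to 22.3 CPM and the UUO libraries from 18.3 over 31.7 to 49.5 CPM, and all 8 UUO libraries exceeded the CL median (0.82 ± 0.21, adjusted p = 0.00246). In ABT mice the CL libraries ran from 6.60 over 16.8 to 19.6 CPM and the UUO libraries from 22.6 over 29.7 to 40.8 CPM, with no overlap (1.02 ± 0.21, adjusted p = 0.000407). Within joined names it was 0.73 in ABT mice (adjusted p = 0.125), and within plain names 0.81 in IgG mice (adjusted p = 0.0748). The PbWT CL libraries had 13.5, 18.2, 17.8 and 14.8 CPM and the UUO libraries 37.5, 37.8, 40.5 and 36.1 CPM, again without overlap (1.26 ± 0.28, 2.39-fold, adjusted p = 0.000712). All 8 UUO libraries of VeWT and all 8 of VeKO mice also exceeded their CL medians, with 0.79 ± 0.36 (adjusted p = 0.140) and 0.67 ± 0.39 (adjusted p = 0.374). With the name form as a covariate Nrp2 was called in VeWT mice (0.75, adjusted p = 0.0440). In PbKO mice the CL libraries scattered over 24.5, 2.47, 34.1 and 15.9 CPM, the 2.47 CPM being a single count, and the UUO libraries had 19.9, 20.3, 17.2 and 28.3 CPM (0.16 ± 0.32, adjusted p = 0.833). Without that CL library, replicate 2, the difference was -0.09.

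Nrp1, the coreceptor of VEGF-A and of semaphorin 3A, rose in IgG and PbWT mice. In IgG mice the CL libraries ran from 73.3 over 117 to 161 CPM and the UUO libraries from 145 over 181 to 238 CPM, with all 8 UUO libraries above the CL median (0.68 ± 0.17, adjusted p = 0.00170). The PbWT CL libraries had 94.8, 127, 105 and 120.2 CPM and the UUO libraries 166, 158, 192 and 212 CPM, with no overlap (0.70 ± 0.13, adjusted p = 0.000153). In PbKO mice the CL libraries had 114, 104, 107 and 105 CPM and the UUO libraries 116, 115, 97.8 and 126 CPM, which overlapped (0.08 ± 0.14, adjusted p = 0.828). The difference was 0.29 ± 0.18 in ABT (adjusted p = 0.254), 0.42 ± 0.23 in VeWT (adjusted p = 0.222) and 0.28 ± 0.24 in VeKO mice (adjusted p = 0.600). In VeWT mice Nrp1 was called with the name form as a covariate (0.40, adjusted p = 0.0347). Over the mean of the groups all 8 mesenchymal and all 8 macrophage markers rose, as did all 8 tubular injury markers. Summed mesenchymal markers ranged from 140 to 847 CPM in CL and from 421 to 2126 CPM in UUO libraries. In PbKO mice 4 mesenchymal, 5 macrophage and 8 injury markers rose (background 3.94%), while neither Nrp1 (0.08) nor Nrp2 (0.16) was called. In ABT mice 8 mesenchymal, 7 macrophage and 8 injury markers rose (background 12.7%), where Nrp2 was called and Nrp1 was not. The part of these markers in the values of Nrp1 and Nrp2 was not tested.

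The next question was whether activating TIE2 changed these levels. No member was called between ABT and IgG mice in UUO or CL kidneys or in the difference of their responses (0 of 6 each, background 0% in all 3), by edgeR, by DESeq2 or, for the kidneys, by the exact test. The log2 fold changes of ABT over IgG ran from -0.30 (Nrp1) to 0.28 (Flt1) in UUO and from -0.34 (Flt1) to 0.19 (Vegfa) in CL kidneys, with no unadjusted p below 0.05. For the responses they ran from -0.39 (Nrp1) to 0.61 (Flt1), and 1 of 6 had an unadjusted p below 0.05. No member was called between VeKO and VeWT mice either (0 of 7 each, background 0% in UUO, in CL and for the responses), with 0 at an unadjusted p below 0.05, by edgeR, DESeq2 or the exact test where it was run. In UUO kidneys 5 of 7 members had a lower mean in VeKO than in VeWT mice, from -0.82 ± 0.42 for Flt4 (unadjusted p = 0.0591) to 0.14 ± 0.29 for Vegfa. In CL kidneys the values ran from -0.39 ± 0.41 (Kdr) to 0.09 ± 0.31 (Vegfa). The SEs in UUO kidneys ran from 0.22 (Nrp1) to 0.53 (Vegfb), and these p values do not show that the groups were alike. Numbers in the names of 8 Veptp libraries join opposite genotypes in the 2 kidneys; without these 8, Vegfa differed between UUO and CL kidneys by -0.84 in VeWT (adjusted p = 0.138) and by -0.60 in VeKO mice (adjusted p = 0.555).

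Libraries labelled PbKO were set against those labelled PbWT in the same way. In UUO kidneys 5 of 6 tested members were called between PbKO and PbWT mice (background 18.6% of 10923 genes): Vegfa (0.62 ± 0.16, 1.54-fold, adjusted p = 0.00640) and Vegfb (0.57 ± 0.18, adjusted p = 0.0270) were higher in PbKO, and Flt1 (-0.64 ± 0.17, adjusted p = 0.00898), Nrp1 (-0.68 ± 0.13, adjusted p = 0.000779) and Nrp2 (-0.80 ± 0.26, adjusted p = 0.0318) were lower. Kdr had -0.29 ± 0.22 (adjusted p = 0.403). In CL kidneys no member was called by edgeR, DESeq2 or the exact test and none had an unadjusted p below 0.05 (0 of 6, background 0%). The Vegfb call in UUO kidneys was lost without PbWT UUO replicate 1, 2 or 4 or PbKO UUO replicate 2 or 4 (adjusted p from 0.0533 to 0.0899), and the Nrp2 call without any of the 4 PbWT UUO libraries or PbKO UUO replicate 2 or 3 (0.0510 to 0.134). The Flt1 call was lost without PbKO UUO replicate 2 (adjusted p = 0.0512), and those of Vegfa and Nrp1 were kept without each library in turn. Library totals alone ended the calls of Vegfa (0.36, adjusted p = 0.116) and Vegfb (0.30, adjusted p = 0.229), and DESeq2 that of Vegfb (adjusted p = 0.0812).

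The difference of the PbKO and PbWT responses to obstruction, which rests in part on the PbWT CL group with its unmarked sham kidneys, was called for 2 of 6 members (background 8.56%). Flt1 had 42.9, 42.0, 44.5 and 45.3 CPM in PbWT CL, 40.0, 49.8, 56.1 and 57.6 CPM in PbWT UUO, 58.1, 47.0, 66.0 and 51.8 CPM in PbKO CL, and 33.2, 25.9, 37.7 and 32.2 CPM in PbKO UUO kidneys. It was thus lower in all 4 obstructed than in all 4 contralateral PbKO kidneys (-0.78 ± 0.18, adjusted p = 0.0111). In PbWT mice it had 0.22 ± 0.16 (adjusted p = 0.318), or 0.58 (adjusted p = 0.00622) with library totals alone, and the responses differed by -1.001 ± 0.25 (adjusted p = 0.0106). The median difference of the responses over 13 endothelial markers was -0.52, and 2 of them were called lower. Their part in the Flt1 difference was not tested. Flt1 kept this call without each of the 16 libraries in turn. The Nrp1 responses differed by -0.63 ± 0.20 (adjusted p = 0.0465), a call that was kept only without PbWT CL replicate 2, PbWT UUO replicate 1 or 2 or PbKO UUO replicate 4 and was lost without each of the other 12 libraries (adjusted p from 0.0562 to 0.117). The responses of Vegfa (0.64 ± 0.22, adjusted p = 0.0773), Vegfb (0.72 ± 0.26, adjusted p = 0.0903) and Nrp2 (-1.10 ± 0.43, adjusted p = 0.117) did not pass. Vegfb and Nrp2 were each called in 1 of the 16 fits that left out 1 library. When all 12 groups shared 1 estimate of the spread, none of the PbKO against PbWT calls remained (lowest adjusted p = 0.121, for Nrp1 in UUO kidneys), and the fall of Flt1 in PbKO mice was not called (-0.78, adjusted p = 0.363).

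**Figure D3:**
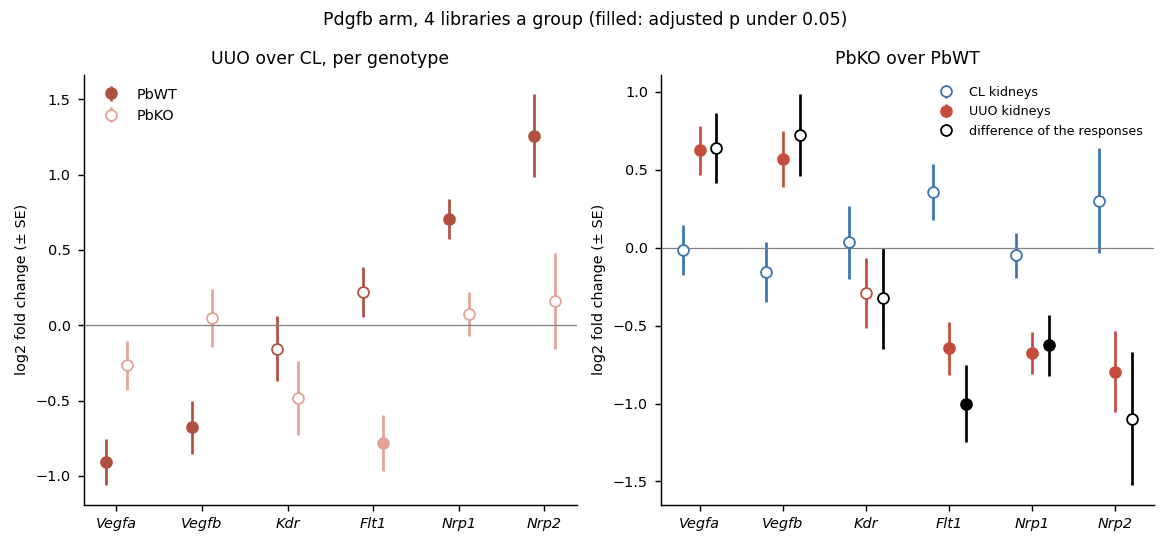
Log2 fold changes (vertical axes, ± SE) of 6 members (horizontal axes) in the Pdgfb arm, 4 libraries a group: UUO over CL in PbWT and PbKO mice (left), and PbKO over PbWT in CL kidneys, in UUO kidneys and as the difference of the responses (right); filled points have an adjusted p below 0.05. The CL points lie near 0 apart from Flt1 and Nrp2, which are uncalled, and 5 of 6 UUO points are filled.

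Cell type markers differed between the same PbKO and PbWT UUO libraries (background 18.6% of all genes in either direction). Of the proximal tubule markers 8 of 10 were higher in PbKO (summed 4123 to 7947 against 2406 to 3286 CPM), and 6 of 7 markers of the thick ascending limb and distal tubule were higher. Of the mesenchymal markers 7 of 8 were lower (465.7 to 1048 against 1299 to 1721 CPM), as were 5 of 8 macrophage markers (385 to 419 against 524 to 802 CPM) and 3 of 13 endothelial markers (274 to 423 against 394 to 514 CPM). None of 7 podocyte markers was called (207 to 279 against 264 to 325 CPM), and 1 of 8 injury markers was lower. No marker of these lists was called between PbKO and PbWT CL kidneys. The part of these markers in the member differences was not tested.

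**Figure D4:**
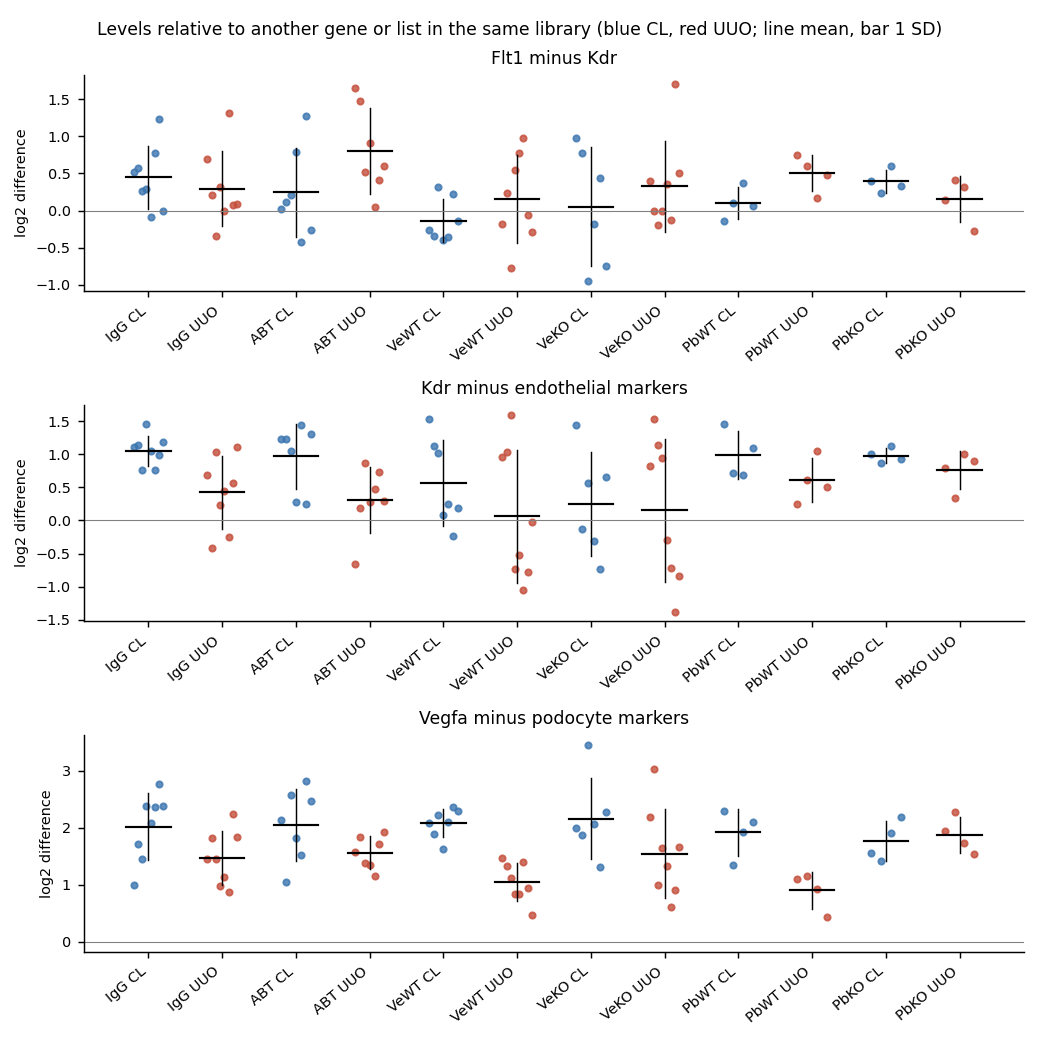
Log2 difference within each library (vertical axes; points, with group mean and 1 SD) of Flt1 and Kdr, of Kdr and the endothelial markers, and of Vegfa and the podocyte markers, by group (horizontal axes; blue CL, red UUO). Vegfa relative to podocyte markers lies lower in every VeWT and PbWT UUO library than in any CL library of the same mice, and overlaps in PbKO mice.

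The wider pathway was read from lists of named genes, beside a background of 25.8% higher and 24.8% lower among all genes in the mean of the groups. Hypoxia-inducible factors (HIF) drive Vegfa under low oxygen; of 13 tested HIF targets 1 rose and 6 fell (median -0.17 against 0.02 for all genes). Hk2, a hexokinase, rose by 3.32 ± 0.31 (adjusted p = 2.00e-16), whereas the mitophagy receptor Bnip3 fell by 0.65 ± 0.08 (adjusted p = 6.25e-11), the pyruvate dehydrogenase kinase Pdk1 by 0.88 ± 0.14 (adjusted p = 6.24e-08) and the glycolytic enzyme Pgk1 by 0.52 ± 0.09 (adjusted p = 6.69e-07). In PbWT mice 1 of 12 rose (background 17.9%) and 6 fell (19.4%), and in PbKO mice 1 rose (3.94%) and none fell (2.40%). In IgG mice none of 11 rose (16.0%) and 5 fell (18.4%), and in ABT mice none of 11 rose (12.7%) and 3 fell (12.5%). In VeWT mice 1 of 13 rose (10.0%) and 1 fell (8.38%), and in VeKO mice 1 of 13 rose (4.47%) and none fell (3.47%). Between PbKO and PbWT UUO kidneys 4 of 12 were higher, where 18.6% of all genes were called in either direction. Of 8 HIF subunits and regulators, 2 fell: the prolyl hydroxylases Egln1 (-0.49 ± 0.12, adjusted p = 0.000458) and Egln2 (-0.23 ± 0.10, adjusted p = 0.0354). Epas1, the HIF-2 alpha subunit, had -0.14 ± 0.07 (adjusted p = 0.0901) and Hif1an, the asparaginyl hydroxylase of HIF, had -0.15 ± 0.09 (adjusted p = 0.169).

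Among class 3 semaphorins and plexins, the other ligands and the partner receptors of neuropilins, 5 of 8 rose and 1 fell (median 0.44). Sema3c rose by 0.91 ± 0.12 (adjusted p = 3.98e-10), and the plexins Plxnd1 by 0.80 ± 0.12 (adjusted p = 2.04e-08), Plxna1 by 0.75 ± 0.12 (adjusted p = 1.67e-07) and Plxna2 by 0.51 ± 0.11 (adjusted p = 2.91e-05). By group, 4 of 7 rose in PbWT (background 17.9%) and none in PbKO mice (3.94%), and 3 of 6 rose in both IgG (16.0%) and ABT mice (12.7%). In VeWT mice 3 of 7 rose (10.0%) and in VeKO mice 1 of 7 (4.47%), and none fell in any of the 6 groups. Of 23 signalling genes downstream of VEGF receptors 9 rose and 3 fell (median 0.15), among them the small GTPase Cdc42 (0.33 ± 0.04, adjusted p = 3.34e-10), the PI3-kinase subunit Pik3r1 (0.53 ± 0.08, adjusted p = 1.47e-08), the kinase Akt1 (0.51 ± 0.10, adjusted p = 1.03e-05) and the adaptor Nck1 (0.48 ± 0.10, adjusted p = 4.81e-05). In PbWT mice 7 of 22 rose (background 17.9%) and 2 fell (19.4%), and in PbKO mice 1 rose (3.94%) and none fell (2.40%). In the other 4 groups 3 of 19 rose in IgG (16.0%), 2 of 19 in ABT (12.7%), 3 of 23 in VeWT (10.0%) and 0 of 23 in VeKO mice (4.47%), and none fell. Of 12 tested genes known to respond to VEGF in endothelial cells, a list that holds Flt1, 5 rose and 2 fell (median 0.31). The calcineurin regulator Rcan1 rose by 1.12 ± 0.09 (adjusted p = 4.50e-18), the apelin receptor Aplnr by 1.45 ± 0.18 (adjusted p = 3.89e-11), the transcription factor Klf4 by 1.27 ± 0.17 (adjusted p = 1.18e-09) and the receptor Notch1 by 0.62 ± 0.12 (adjusted p = 1.29e-05). By group 2 of 7 rose and 1 fell in IgG mice, 3 of 7 rose in ABT, 4 of 11 in VeWT, 1 of 11 in VeKO and 4 of 10 in PbWT mice, and in PbKO mice 1 of 10 rose and 2 fell, beside the same backgrounds. Between PbKO and PbWT UUO kidneys 3 of 10 of these were lower and none higher (background 18.6% in either direction).

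Pro-VEGF-C is cut by proprotein convertases and, with the help of the cofactor Ccbe1, by a further protease into its active form. Of 4 tested genes Ccbe1 rose by 0.47 ± 0.20 (adjusted p = 0.0392), and the convertases Pcsk7 (-0.57 ± 0.11, adjusted p = 1.71e-05) and Furin (-0.25 ± 0.10, adjusted p = 0.0395) fell, while Pcsk5 had -0.12 ± 0.11 (adjusted p = 0.376). Of the other family ligands, Vegfd, a second ligand of VEGFR3, had 0.18 ± 0.17 (adjusted p = 0.401), and Pgf, placental growth factor, was below the filter.

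**Figure D5:**
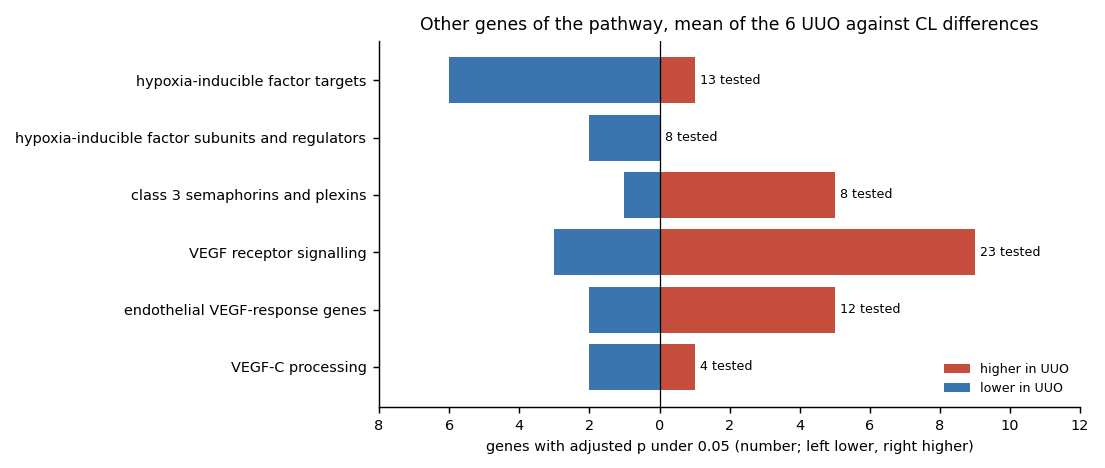
Number of genes of 6 pathway lists (horizontal axis) that were higher (right, red) or lower (left, blue) in UUO than in CL kidneys over the mean of the 6 groups, adjusted p below 0.05, with the number tested beside each bar. HIF targets have 6 genes on the lower side and 1 on the higher, and the semaphorin and plexin list 5 higher and 1 lower.

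Genes most like each member were sought over the 75 libraries, as Pearson's r of log2(CPM + 1) centred within arm and form of library name, among 7838 genes of at least 20 CPM; libraries share the contrast of UUO and CL, so these are descriptions. Nearest to Vegfa were mt-Nd6, a mitochondrially coded subunit of complex I (r = 0.81), Hibadh, an enzyme of valine breakdown (0.81), and 0610005C13Rik (0.81). Nearest to Vegfb were Atp5g1, Ndufb9 and Atp5d (0.67, 0.67 and 0.66), which code for parts of the respiratory chain and ATP synthase. Kdr was nearest to Ptprb, the endothelial phosphatase VEPTP itself (0.57), followed by Igfbp5 (0.54) and Wnk1 (0.53), and Flt1 to Igfbp5 (0.52), Kdr (0.51) and Vps26a (0.50). Nrp1 was nearest to F2r, the thrombin receptor, Ets1, a transcription factor of endothelial and immune cells, and Actn1, an actin crosslinker (0.71, 0.71 and 0.70). Nrp2 was nearest to Mki67, a marker of dividing cells (0.71), Psmb10, an immunoproteasome subunit (0.69), and Cyp1b1 (0.69). Without centring, mt-Nd6, Ptprb and Mki67 were again the nearest to Vegfa, Kdr and Nrp2, whereas Hibadh and 0610005C13Rik ranked 1638 and 2791 for Vegfa, Igfbp5 and Vps26a 2038 and 4935 for Flt1, and Actn1 2846 for Nrp1. Among the members, Vegfa went with Vegfb (r = 0.55), Kdr with Flt1 (0.51) and Nrp1 with Nrp2 (0.63), and Vegfa ran against Nrp1 (-0.57) and Nrp2 (-0.55).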

How the data were processed

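Whole mouse kidneys were profiled by RNA-seq with molecular identifiers, with the wells of a sample merged. Per the labels and the study's methods, the authors aligned reads with STAR (2.7.3a) to mm10, removed duplicate molecules with UMI-tools (1.1.4) and deposited raw counts per gene from featureCounts (Subread 1.4.6-p5); the gene annotation is not given in the sources used here. Few counts per gene limit the precision, and small differences in genes with few counts may go undetected at this depth. Limits set by 0 counts cover counting error only. All 75 columns were matched to samples by title, and 0 were left unmatched. Of 214 pairs of libraries of the same group, 0 were identical.

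Each arm's 4 groups were fitted together in edgeR (4.0.16) with TMM scaling, filterByExpr and the quasi-likelihood test (1 mean per group, threshold 0.05); the mean response and the comparison of control responses used all 12 groups. DESeq2 (1.42.0), edgeR's exact test (the authors' choice) and other settings were alternatives. Relative values used exact two-sided permutation tests on log2(CPM + 1). Vegfc and Flt4, where the filter removed them, were tested by permutation of CPM, a choice made after seeing the data. The members and lists were chosen with earlier results of these data known. All 8 members were named in each comparison, at most 4 genes per other list by lowest adjusted p in the mean response, and 3 most alike genes for members of at least 20 CPM.

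Of the ABT libraries, 3 CL and 3 UUO libraries share a number in their names; their deviations from the group means correlated at 0.40, 0.21 and 0.17, so the numbers were taken to pair them, and the fit with a replicate block was run beside the main one. Protein sequences were not used here.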

Additional observations from a re-analysis of the deposited data

Results flagged for a closer look

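Of 96 combinations of a member and a group, 4 had a library far from the others of its group by Dixon's criterion, a rate at or below the 1 in 20 that chance gives. Vegfa reached 128 CPM in IgG CL replicate 4, where the next library had 87.8 CPM. Vegfc reached 10.8 CPM in IgG UUO replicate 5, which was 3 counts, and 12.0 CPM in ABT UUO replicate 4, which was 5 counts. Kdr reached 70.1 CPM in VeWT CL replicate 1, where the next library had 40.4 CPM.

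The response to obstruction differed between PbKO and PbWT mice for Flt1 (log2 difference -1.001, adjusted p = 0.0106) and for Nrp1 (-0.63, adjusted p = 0.0465), by the test of the difference itself in edgeR with 4 libraries a group. With all 12 groups in 1 fit neither was called (adjusted p = 0.443 and 0.595), and the Nrp1 call was also lost without the filter on low counts (adjusted p = 0.129) and without each of 12 of the 16 libraries. Flt1 was lower in 4 of 4 PbKO UUO libraries than in any PbKO CL library, and Nrp1 was higher in 4 of 4 PbWT UUO libraries than in any PbWT CL library.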

How the results depend on the processing

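The number of members called for UUO against CL kidneys changed by more than 1.5 times under these settings. Library totals alone left 2 in IgG and gave 1 in VeWT mice, a mean count of at least 20 left 2 in IgG, 1 in ABT and 3 in the mean of the groups, where fewer members were tested, and all 12 groups in 1 fit left 1 in ABT (Nrp2) and 0 in PbKO mice but gave 2 in VeWT and 1 in VeKO mice. Libraries with joined names alone gave 0 in ABT, 2 in VeWT and 2 in VeKO mice, and plain names 1 in IgG, 1 in ABT and 1 in VeWT mice. The name form as a covariate gave 4 in VeWT and 2 in VeKO mice, and Xist gave 1 in VeWT mice. For PbKO against PbWT mice, library totals left 3 and the 12-group fit 0 of 5 calls in UUO kidneys, and for the responses no filter left 1 and the 12-group fit 0 of 2. The cause was not tested. Leaving out 1 library at a time gave 0 to 1 calls in VeWT mice (Vegfa without VeWT CL replicate 7 or UUO replicate 2), 2 to 5 for PbKO against PbWT in UUO kidneys and 1 to 2 for the responses.

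In the Veptp arm, CL and UUO libraries that share a number correlated at 0.06 to 0.43. Each value was above the mean with other numbers (-0.09 to 0.003). Of the 8 numbers 4 join opposite genotypes, and the highest value (0.43, number 3) joins a VeKO CL with a VeWT UUO library. Whether these numbers mark the same mouse, and which genotype label then holds, was not tested. A replicate block on them gave 1 call in VeWT (Vegfa, -0.92) and 2 in VeKO mice (Vegfa, -0.78, and Nrp2, 0.96), and Flt4 in VeKO mice was 0.32. In the ABTAA arm the block changed no call but that of Vegfb. Leaving out 1 library newly called Vegfb in IgG (without IgG CL replicate 5 or 6, ABT CL replicate 5 or IgG UUO replicate 2) and in ABT mice (ABT CL replicate 5) and Kdr in ABT mice (ABT CL replicate 6).

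Directions turned only in values that the reported tests had not called. With library totals Flt1 in VeWT mice was 0.0770, Flt4 in VeKO mice 0.0268, Kdr in PbWT mice 0.21 and Vegfc in IgG mice 0.16 CPM. With joined names alone Flt1 in VeWT mice was 0.000165 and Flt4 in VeKO mice 0.0362. With plain names Kdr in VeKO mice was 0.39, and with Xist Vegfb in VeKO mice was 0.0667. Without 1 library, Flt1 in VeWT mice ran from -0.30 to 0.13, Flt4 and Vegfb in VeKO mice from -0.39 to 0.42 and from -0.51 to 0.12, Kdr in PbWT mice from -0.39 to 0.00858, and Nrp2 and Vegfb in PbKO mice from -0.0928 to 0.43 and from -0.0160 to 0.0898. Kdr relative to endothelial markers ran from -0.29 to 0.14 in VeKO mice, and in IgG mice from -0.73 to -0.51, where it was called without UUO replicate 3 or 8 and with a pseudocount of 5 CPM (-0.56). Vegfa relative to podocyte markers in PbKO mice ran from -0.0255 to 0.25. In CPM, Vegfc ran from -1.59 to 0.0414 in IgG and from -0.84 to 1.87 in PbWT mice, and Flt4 from -0.60 to 3.27 in PbKO mice.

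Library totals moved the share of all called genes that were higher in UUO kidneys from 46.5% to 68% in IgG and from 48% to 78.8% in PbWT mice, with a median over all genes of 0.40 in PbWT mice; Flt1 was 0.58 there (adjusted p = 0.00622). The block together with the form could not be fitted in the Veptp arm, and single libraries were not left out of the fit of all groups.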
